A study of Mus musculus with 6 samples.

Results

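The genes described here build and run the motile cilium. They are the 90 protein-coding genes whose symbols begin with Dnah, Dnai or Dnaic, Dnaaf, Cfap, Rsph, Tekt, Drc or Ift followed by a number, together with Foxj1, Tppp3, Dynlrb2, Ccdc39, Ccdc40, Ccdc113, Ccdc153, Spag6l, Spag16, Spag17, Hydin and Mns1, out of 31130 genes in the tables. The rule reads gene names and gene type. Of the 90 genes, 76 are called motile-specific below and 14 are Ift genes. The word motile-specific names the group and was not checked in other cell types. RNA was measured in 3 tumors of a mouse model of lung cancer alone (LC) and 3 tumors of a model in which interstitial pneumonia preceded the cancer (IP + LC), all from wild-type mice and collected on day 21. Every tumor grew from the mouse tumor line LLC (Lewis lung carcinoma), which had been placed in the left lung of female C57BL/6 mice aged 6 to 8 weeks on day 14. The IP + LC mice had received bleomycin, a drug that causes lung injury and then fibrosis, at 2 mg/kg by the oropharyngeal route 14 days before the cells, and the LC mice had received none. The samples were whole tissue, so fewer cells of a type and less RNA per cell cannot be told apart. The labels do not say that each tumor came from its own mouse, and p-values therefore measure the spread between these samples.

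A motile cilium is a beating hair on the surface of a multiciliated cell, which in the lung lines the airways and moves mucus. Its core, the axoneme, is a ring of doublet microtubules around a central pair. Dynein arms on the doublets slide them against each other, and radial spokes, the central apparatus and the dynein regulatory complex control that sliding. Tektins lie inside the doublet wall, many Cfap proteins line the doublets or the central pair, and the Dnaaf proteins assemble dynein in the cytoplasm before it reaches the cilium. Foxj1 is the transcription factor of the forkhead family that switches on the motile cilium genes, and RFX factors act with it. The Ift proteins form the trains of intraflagellar transport (IFT), which carry cargo along both motile cilia and the single immotile primary cilium that many other cell types bear.

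Sequence next to the start of these genes is shown first because RFX and forkhead factors read such sites. RefSeq promoters of GRCm38.p6, each with 250 bases before the start and 50 bases from it, were found for 74 of the 90 genes. The RFX half-site GTTGCCA, sought on both strands, was present in 14 of 70 promoters of motile-specific genes (a gene can have more than 1), in 18.2% of 11 promoters of Ift genes and in 4.38% of all 32851 promoters. The forkhead site GTAAACA, also on both strands and not overlapping the first, was present in 5.71% of the motile-specific promoters, in 0 of the 11 Ift promoters and in 3.65% of all promoters. A match describes the letters of the window and no binding was measured. The 5 tested genes with the highest mean level among those with a match are Cfap20, Ift27, Cfap43, Mns1 and Ift88, given on the coding strand with the matches in capitals, read as TGGCAAC where the RFX half-site lies on the other strand. They lie at chr8:95434820-95435119 on the minus strand for Cfap20, chr15:78174032-78174331 on the minus strand for Ift27, chr19:47837312-47837611 on the minus strand for Cfap43, chr9:72438279-72438578 on the plus strand for Mns1 and chr14:57423821-57424120 on the plus strand for Ift88.
Cfap20: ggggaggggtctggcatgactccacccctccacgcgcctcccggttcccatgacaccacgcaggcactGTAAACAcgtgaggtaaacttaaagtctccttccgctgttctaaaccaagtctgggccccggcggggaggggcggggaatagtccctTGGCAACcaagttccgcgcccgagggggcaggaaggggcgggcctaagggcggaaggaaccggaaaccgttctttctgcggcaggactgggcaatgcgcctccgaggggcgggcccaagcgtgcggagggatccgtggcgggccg
Ift27: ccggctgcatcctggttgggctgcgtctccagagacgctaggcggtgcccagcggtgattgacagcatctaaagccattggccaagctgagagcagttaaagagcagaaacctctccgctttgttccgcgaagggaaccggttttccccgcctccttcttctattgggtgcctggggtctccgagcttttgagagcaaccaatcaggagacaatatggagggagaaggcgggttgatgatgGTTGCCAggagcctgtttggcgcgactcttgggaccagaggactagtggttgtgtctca
Cfap43: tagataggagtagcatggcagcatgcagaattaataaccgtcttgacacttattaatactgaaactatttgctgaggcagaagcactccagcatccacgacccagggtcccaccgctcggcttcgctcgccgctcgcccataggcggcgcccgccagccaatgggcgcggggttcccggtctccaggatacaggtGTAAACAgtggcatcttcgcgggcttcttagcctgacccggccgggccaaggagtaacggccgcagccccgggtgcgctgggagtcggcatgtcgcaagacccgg
Mns1: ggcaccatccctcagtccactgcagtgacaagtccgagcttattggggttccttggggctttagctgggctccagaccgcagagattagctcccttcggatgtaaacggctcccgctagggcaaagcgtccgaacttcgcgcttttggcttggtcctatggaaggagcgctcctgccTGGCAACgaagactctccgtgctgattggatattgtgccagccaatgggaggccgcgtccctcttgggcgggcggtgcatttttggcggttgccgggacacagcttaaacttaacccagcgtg
Ift88: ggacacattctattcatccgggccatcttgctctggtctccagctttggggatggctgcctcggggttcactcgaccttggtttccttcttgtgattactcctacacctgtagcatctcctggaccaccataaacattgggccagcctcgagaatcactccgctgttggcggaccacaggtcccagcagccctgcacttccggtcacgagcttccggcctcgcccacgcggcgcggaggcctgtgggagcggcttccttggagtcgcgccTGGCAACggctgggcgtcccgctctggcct
Cfap20 was the printed gene with both motifs, Cfap43 had the forkhead site alone, and the other printed genes had the RFX half-site alone. Cfap43 and Ift88 were lower in IP + LC, and Cfap20, Ift27 and Mns1 did not pass the test, as described below.

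The values are counts of unique molecular identifiers (UMIs), each of which marks 1 captured transcript end, so that a count does not grow with transcript length. Libraries held 592733 UMIs in LC replicate 1, 1356381 to 1379759 in the other LC tumors and 1336919 to 1631066 in the IP + LC tumors. Levels are given as CPM, a gene's UMIs per 1000000 UMIs of the tested genes after TMM scaling, and 3 UMIs, the limit that a count of 0 allows for counting error, corresponded to 5.17 CPM in LC replicate 1 and 1.75 to 2.54 CPM elsewhere. LC replicate 1 stood apart in more than depth. Its summed level of 56 other multiciliated cell genes was 0.392 of the mean of LC replicates 2 and 3, and its summed level of 12 proliferation genes was 5.50 times that mean. The main counts and sums are given with and without it, as are those named genes that were tested and whose call it changes.

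Most of the motile cilium genes that could be tested were lower in the IP + LC tumors, while the count of lower Ift genes depended on the setting. Of the 76 motile-specific genes, 35 passed the filter on low counts, 25 of them were lower in IP + LC and none was higher, by edgeR's quasi-likelihood test at a Benjamini-Hochberg adjusted p limit of 0.1. Over all 11240 tested genes, 19.6% were lower and 16.8% were higher by the same rule, 36.4% in either direction. At an unadjusted p limit of 0.05 the count of higher motile-specific genes was also 0, with 26 lower, and DESeq2 and limma voom likewise called 0 higher. The median log2 fold change (IP + LC minus LC) was -1.59 over the 35 tested motile-specific genes, -0.56 over the 14 Ift genes and 0.02 over all tested genes. A gene that is high only in LC passes the filter through that group, so the fit was also made without a filter. It then held 75 motile-specific genes and called 38 lower and 0 higher with a median of -1.44, where 8.51% of all genes with a UMI were lower and 7.87% were higher. With a filter on the mean over all 6 libraries, 24 of 36 motile-specific genes were lower, against 19.7% of all genes it kept. Without LC replicate 1, 47 motile-specific genes were tested and 38 were lower, against 28.7% of all tested genes.

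Levels were also compared over all 76 motile-specific genes, whether tested or not. The mean CPM was lower in IP + LC for 68 of them and higher for 7, namely Cfap410, Cfap74, Dnaaf2, Dnaaf5, Dnah17, Mns1 and Rsph3a, and Rsph6a had no UMI in any tumor. Among protein-coding genes with a UMI, the mean was lower for 58.2%. In 40 of the 76 genes all 3 IP + LC tumors lay below all 3 LC tumors, and in none did they lie above, whereas 17.5% of protein-coding genes with a UMI had all IP + LC tumors below. The summed level of the motile-specific genes was 1465, 2050 and 2133 CPM in the LC tumors and 732, 616 and 717 CPM in the IP + LC tumors. The means were 1883 ± 364 and 688 ± 63.3 CPM (SD, n = 3), a ratio of 2.74, or 3.04 without LC replicate 1. Every LC tumor was above every IP + LC tumor in this sum, and LC replicate 1 was the lowest of its group. The same separation was seen in the sums of every role except the dynein assembly factors.

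**Figure D1:**
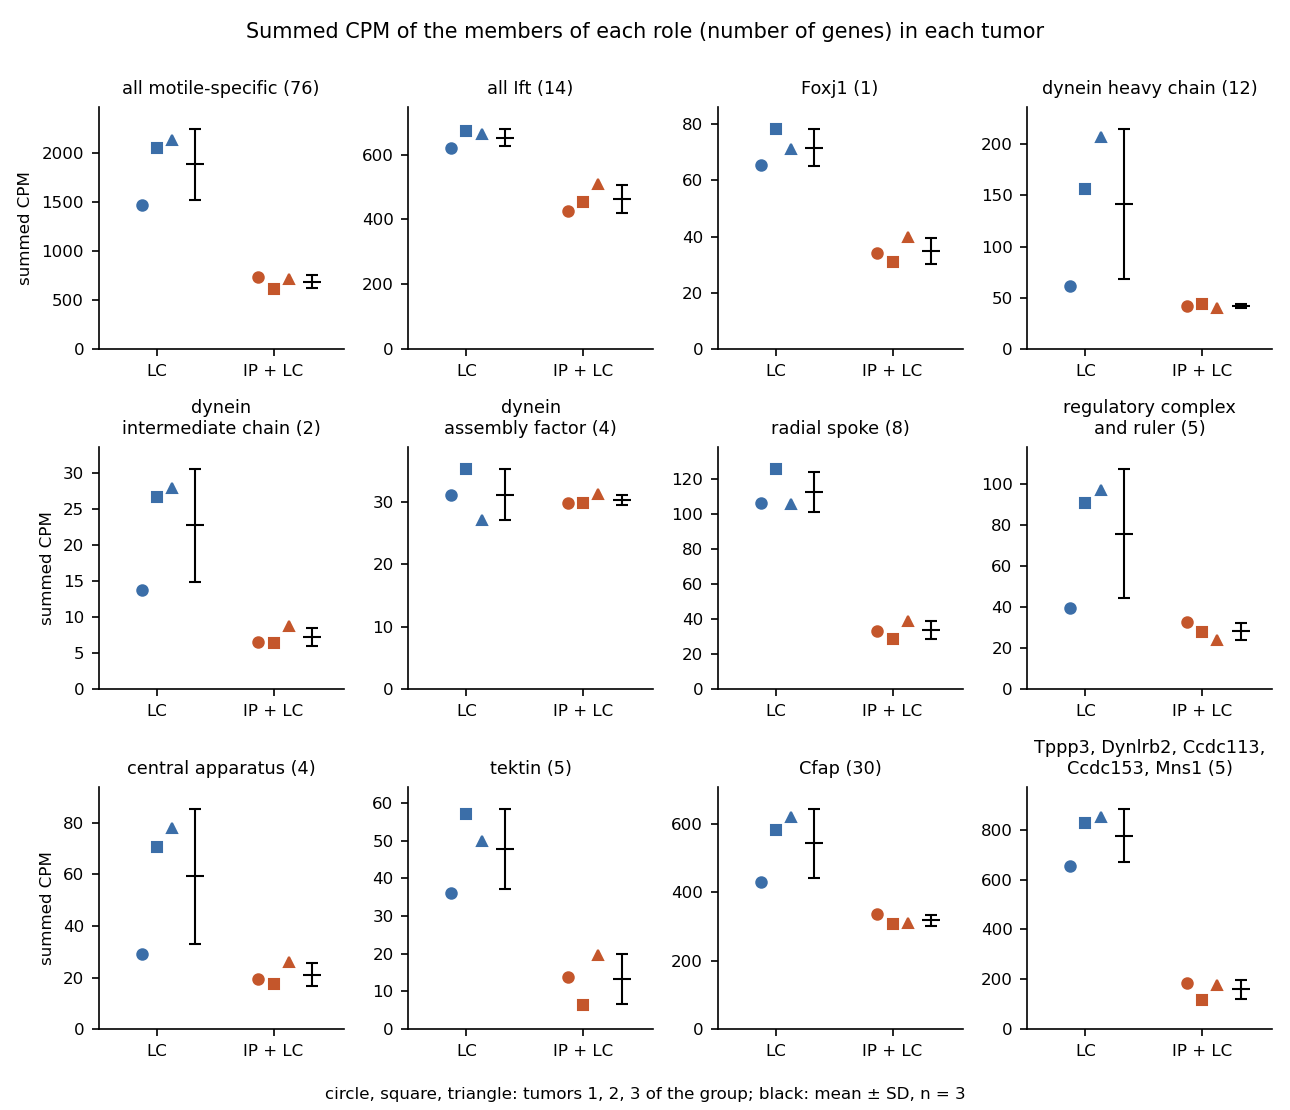
Summed CPM (linear axes from 0) in each of the 6 tumors for all motile-specific genes, all Ift genes and each role, with the number of genes in parentheses, points for tumors and bars for mean ± SD over 3 tumors. The motile-specific sum was 1465 to 2133 CPM in LC and 616 to 732 CPM in IP + LC, and the 4 dynein assembly factors are the role in which the groups overlap.

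Foxj1, the transcription factor at the head of the programme (ENSMUSG00000034227, chr11:116330704-116335399, minus strand, GRCm38), was at 65.4, 78.3 and 71.2 CPM in LC and at 34.1, 30.9 and 39.9 CPM in IP + LC. The groups did not overlap. It was lower in IP + LC by 2.06-fold (log2 fold change -1.04, SE 0.20, edgeR adjusted p = 0.00678). LC replicate 1 was close to the other LC tumors for this gene, in contrast to several axonemal genes below. Tppp3 encodes a tubulin polymerization-promoting protein that is abundant in multiciliated cells, and it carried the most UMIs of all members. It was at 413, 516 and 558 CPM in LC and at 104, 55.4 and 95.1 CPM in IP + LC. The lowest LC tumor was well above the highest IP + LC tumor, and the change was 5.87-fold (log2 fold change -2.55, SE 0.28, edgeR adjusted p = 0.000918). Near-identical stretches in other genes covered up to 10.0% of a Tppp3 transcript, the highest share over its annotated transcripts, so reads from those stretches are of uncertain origin.

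Dynlrb2, a roadblock-type light chain of dynein, and Ccdc153, a coiled-coil protein of motile cilia, moved by a similar amount. Dynlrb2 was at 103, 103 and 105 CPM in LC and at 25.4, 15.2 and 19.6 CPM in IP + LC. The LC tumors were nearly equal, including LC replicate 1. The log2 fold change was -2.38 (SE 0.24, edgeR adjusted p = 0.000821). Ccdc153 was at 107, 169 and 136 CPM against 26.1, 20.4 and 31.2 CPM, again without overlap. Its log2 fold change was -2.42 (SE 0.26, edgeR adjusted p = 0.000859). Ccdc113, another coiled-coil protein of the axoneme, was at 22.4, 21.9 and 26.3 CPM in LC and at 7.25, 5.84 and 5.81 CPM in IP + LC, with a log2 fold change of -1.90 (SE 0.29, edgeR adjusted p = 0.00252).

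Mns1, a protein inside the doublet microtubules, was not among the lower genes. It was at 6.89, 16.5 and 24.6 CPM in LC and at 22.5, 19.3 and 25.4 CPM in IP + LC, the groups overlapped, and the log2 fold change of 0.37 did not pass the test (SE 0.36, edgeR adjusted p = 0.474). The 95% interval ran from -0.44 to 1.19, and the change shrank to 0.13 on leaving out LC replicate 1 (edgeR adjusted p = 0.715). Over 16 alternatives it ran from 0.13 to 0.76, and it passed in none. In the annotation, 53.0% of the exonic bases of Mns1 overlap Tex9 on the opposite strand. The use of the strand in counting is not stated in the sources used here, so reads of the 2 genes may not be told apart.

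**Figure D2:**
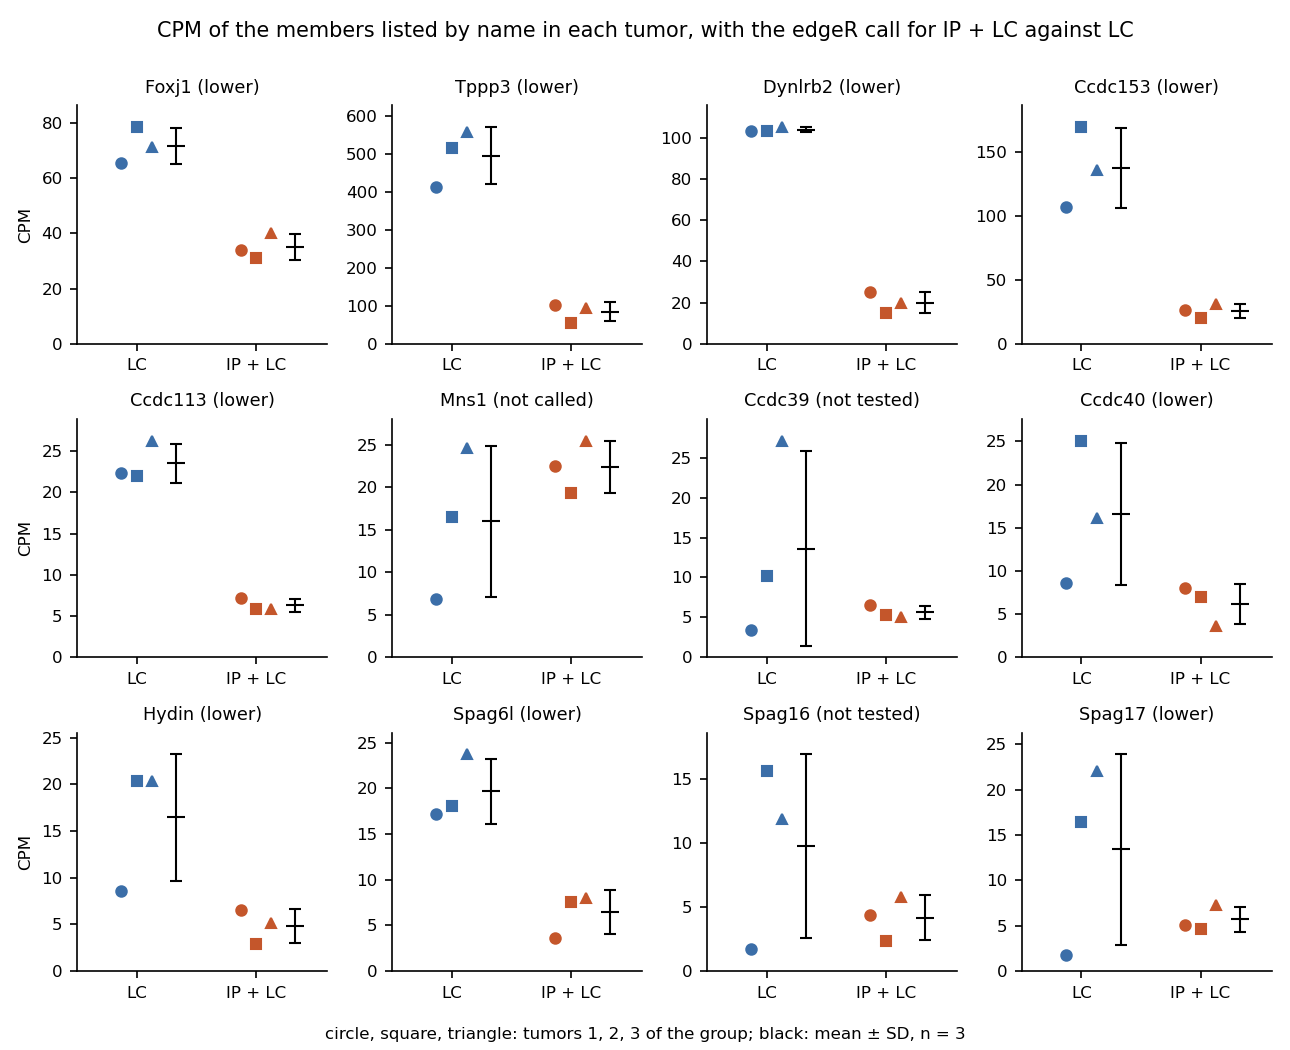
CPM (linear axes from 0, each gene with its own scale) of the 12 genes listed by name in each tumor, with the edgeR call in the panel title and bars for mean ± SD over 3 tumors. Tppp3, Dynlrb2, Ccdc153, Ccdc113 and Foxj1 separate the groups with room between them, while LC replicate 1 lies below every IP + LC tumor for Ccdc39, Mns1, Spag16 and Spag17.

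Dynein heavy chains are the motor subunits of the arms. Of the 12 heavy chain genes 4 were tested, and all 4 were lower in IP + LC, against 19.6% of all tested genes. In the fit without a filter 5 of 12 were lower, against 8.51%. Dnah5, a heavy chain of the outer arm, was at 17.2, 48.6 and 61.0 CPM in LC and at 8.70, 7.59 and 9.44 CPM in IP + LC. The log2 fold change was -2.38 (SE 0.42, edgeR adjusted p = 0.00439), with every LC tumor above every IP + LC tumor and LC replicate 1 lowest among the LC tumors. Dnah9, an outer arm heavy chain of the distal cilium, was at 8.61, 18.02 and 15.3 CPM against 5.08, 5.25 and 3.63 CPM (log2 fold change -1.63, SE 0.38, edgeR adjusted p = 0.0136). Dnah6, an inner arm heavy chain, had a log2 fold change of -1.98 without overlap. Dnah12, also of the inner arm, had 2 UMIs in LC replicate 1 against 48 and 64 in the other LC tumors and 11, 22 and 13 in the IP + LC tumors. The groups therefore overlapped, and its log2 fold change was -1.76 (SE 0.60, edgeR adjusted p = 0.0556). It was -2.14 without LC replicate 1 (edgeR adjusted p = 2.1e-05), and without any 1 of the other 5 tumors the gene no longer passed, at edgeR adjusted p of 0.142 to 0.212.

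Summed over the 12 genes, the heavy chains gave 62.0, 156 and 207 CPM in LC and 42.1, 44.4 and 39.9 CPM in IP + LC. LC replicate 1 reached only 0.342 of the mean of the other LC tumors, yet stayed above the IP + LC tumors. The ratio of the means was 3.36, and 4.31 without LC replicate 1. The 8 heavy chains below the filter had at most 20 UMIs in any tumor. Dnah8 had 4, 18 and 20 UMIs in LC against 0, 5 and 2 in IP + LC, and Dnah1 had 2, 9 and 4 against 1, 2 and 2, whereas Dnah14 and Dnah17 had no UMI in at least 2 LC tumors.

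The intermediate chains, which sit at the base of the outer arm, were below the filter. Dnaic1 had 4, 13 and 17 UMIs in LC and 6, 3 and 7 in IP + LC, and Dnaic2 had 4, 21 and 16 against 3, 8 and 5. Scaled to CPM, both genes were lower in every IP + LC tumor than in any LC tumor. In the fit without a filter, Dnaic1 (log2 fold change -1.44) and Dnaic2 (log2 fold change -1.73) were lower at edgeR adjusted p of 0.0834 and 0.0157.

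The dynein assembly factors help to put the arms together in the cytoplasm. Their summed level was 31.0, 35.3 and 27.1 CPM in LC and 29.7, 29.8 and 31.2 CPM in IP + LC, a ratio of 1.03 with overlapping groups. Dnaaf5, the only one tested, was at 13.8, 13.3 and 5.93 CPM against 18.1, 13.4 and 13.8 CPM. Its log2 fold change of 0.50 did not pass the test (SE 0.37, edgeR adjusted p = 0.349), with a 95% interval from -0.34 to 1.34. Dnaaf2 had 4, 7 and 3 UMIs in LC and 7, 17 and 12 in IP + LC, and 71.4% of its exonic bases overlap other genes. Dnaaf3 had 2, 9 and 10 UMIs against 5, 8 and 9. Dnaaf1, with 4, 12 and 12 UMIs against 4, 3 and 3, was the 1 assembly factor without overlap, all IP + LC tumors being lower in CPM. It was called lower in the fit without a filter (log2 fold change -1.84, edgeR adjusted p = 0.0572) and in that without LC replicate 1 (log2 fold change -2.07, edgeR adjusted p = 0.00284).

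Of the 8 radial spoke genes 2 were tested, and both were lower in IP + LC, against 19.6% of all tested genes. In the fit without a filter 5 of 7 were lower, against 8.51%. Rsph1, a component of the spoke head, was at 51.7, 58.8 and 43.2 CPM in LC and at 10.2, 11.7 and 12.3 CPM in IP + LC. The groups were far apart, and the log2 fold change was -2.16 (SE 0.24, edgeR adjusted p = 0.000918). Rsph9, also of the spoke head, was at 34.4, 25.1 and 29.7 CPM against 9.43, 4.67 and 9.44 CPM (log2 fold change -1.91, SE 0.33, edgeR adjusted p = 0.00428). In both genes LC replicate 1 was in the range of the other LC tumors or above it. Summed over the 8 genes, the level was 107, 126 and 106 CPM in LC and 33.4, 28.6 and 39.2 CPM in IP + LC, a ratio of 3.35, or 3.44 without LC replicate 1. The 6 genes below the filter included Rsph4a, with 3, 15 and 20 UMIs in LC and 6, 5 and 5 in IP + LC. Rsph4a was lower without a filter (log2 fold change -1.59, edgeR adjusted p = 0.0366) and without LC replicate 1 (log2 fold change -1.96, edgeR adjusted p = 0.00142). Rsph3a and Rsph3b share near-identical sequence with each other or with further genes over up to 100% and 98.5% of a transcript, so their counts cannot be assigned with certainty. Rsph3a had 0, 6 and 2 UMIs in LC and 8, 6 and 4 in IP + LC.

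The dynein regulatory complex links neighbouring doublets, and Ccdc39 and Ccdc40 form the ruler that sets the spacing of spokes and inner arms. All 3 tested genes of this set were lower in IP + LC, against 19.6% of all tested genes. In the fit without a filter 4 of 5 were lower, against 8.51%. With the filter on the mean over all 6 libraries 3 of 4 were lower, against 19.7%. Drc3 was at 12.1, 25.1 and 27.1 CPM in LC and at 7.98, 5.84 and 8.71 CPM in IP + LC (log2 fold change -1.59, SE 0.36, edgeR adjusted p = 0.0127). Drc1 and Ccdc40 had log2 fold changes of -1.40 (SE 0.37, edgeR adjusted p = 0.0227) and -1.49 (SE 0.44, edgeR adjusted p = 0.0342). In all 3 genes LC replicate 1 was the lowest LC tumor and still above the IP + LC tumors. Without LC replicate 2, Drc1 and Ccdc40 no longer passed (edgeR adjusted p = 0.115 and 0.192), nor did Ccdc40 without IP + LC replicate 2 or 3 (0.119 and 0.129). Ccdc39 was below the filter with 2, 13 and 32 UMIs in LC and 9, 9 and 7 in IP + LC, 16.9% of its exonic bases overlap Ttc14, and up to 100% of one of its transcripts has near-identical sequence in Ttc14. It was lower without a filter (log2 fold change -1.26, edgeR adjusted p = 0.0550) and without LC replicate 1 (log2 fold change -1.69, edgeR adjusted p = 0.00498). Drc7, also below the filter, had 4, 13 and 9 UMIs against 5, 5 and 1, and was not called without a filter (edgeR adjusted p = 0.114).

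The central apparatus was represented by Hydin, Spag6l, Spag16 and Spag17. Hydin, a protein of a central pair projection, was at 8.61, 20.4 and 20.3 CPM in LC and at 6.53, 2.92 and 5.08 CPM in IP + LC. Its log2 fold change was -1.87 (SE 0.43, edgeR adjusted p = 0.0133). Spag6l was at 17.2, 18.02 and 23.7 CPM against 3.63, 7.59 and 7.99 CPM, without overlap (log2 fold change -1.61, SE 0.36, edgeR adjusted p = 0.0114). Spag17 had 1, 21 and 26 UMIs in LC and 7, 8 and 10 in IP + LC. LC replicate 1 was below every IP + LC tumor for this gene, and its log2 fold change of -1.41 passed the limit narrowly (SE 0.57, edgeR adjusted p = 0.0952). The log2 fold change was -1.75 without LC replicate 1 (edgeR adjusted p = 0.00108). The gene did not pass without any 1 of the other 5 tumors (edgeR adjusted p of 0.176 to 0.331), and over all 15 alternatives that held it the call stayed in 4. Spag16 was below the filter and had a mean of 9.75 ± 7.21 CPM in LC and 4.16 ± 1.74 CPM in IP + LC (SD, n = 3). It was lower without LC replicate 1 (log2 fold change -1.74, edgeR adjusted p = 0.00424) but did not pass without a filter (log2 fold change -1.27, edgeR adjusted p = 0.133).

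Tekt1, a tektin of the doublet wall, was at 17.2, 24.3 and 20.3 CPM in LC and at 7.25, 2.92 and 8.71 CPM in IP + LC. It was lower with a log2 fold change of -1.77 (SE 0.40, edgeR adjusted p = 0.0119). The other 4 tektins were below the filter. Tekt4 had 4, 23 and 16 UMIs in LC and 3, 4 and 4 in IP + LC, Tekt2 had 5, 15 and 9 against 4, 1 and 6, and both were lower in the fit without a filter. The 5 tektins summed to 47.8 ± 10.7 CPM in LC and to 13.3 ± 6.61 CPM in IP + LC (SD, n = 3), a ratio of 3.60.

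Cfap genes, named for cilia and flagella associated proteins, formed the largest role, and their calls were mixed. Of 30 genes 15 were tested, of which 7 were lower, against 19.6% of all tested genes, and 8 did not pass the test. In the fit without a filter 10 of 30 were lower, against 8.51%. The summed ratio was 1.71. Leaving out LC replicate 1 gave 12 of 18 lower, against 28.7% of all tested genes. The genes with the highest mean level illustrate both outcomes. Cfap43, a protein of the axoneme, was at 46.5, 48.6 and 47.5 CPM in LC and at 21.8, 27.4 and 14.5 CPM in IP + LC. It was lower with a log2 fold change of -1.15 (SE 0.26, edgeR adjusted p = 0.0116). Cfap36 was at 94.7, 75.2 and 87.3 CPM against 94.99, 77.6 and 82.1 CPM, nearly equal values with a log2 fold change of -0.007 (SE 0.20) and a 95% interval from -0.45 to 0.44. Its sign turned under 8 alternatives, all within that interval. Cfap20 was at 60.3, 72.1 and 59.3 CPM against 49.3, 47.3 and 44.3 CPM, all IP + LC tumors being below all LC tumors, but its log2 fold change of -0.45 did not pass the limit (SE 0.19, edgeR adjusted p = 0.117). It passed without LC replicate 1 (edgeR adjusted p = 0.0351), with upper quartile scaling (0.0857) and, at the limit, with at least 10 UMIs in every library, but in no other alternative. Near-identical stretches in other genes cover up to 64.8% of one of its transcripts.

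Some Cfap genes are given because of their values. Cfap161, chosen for the largest decrease of all members, had 5, 40 and 25 UMIs in LC and 3, 3 and 1 in IP + LC. Its log2 fold change was -3.73 (SE 0.58, edgeR adjusted p = 0.00253), and the scaled ratio of the summed counts was 14.7 with a 95% counting interval from 6.78 to 37.9. Near-identical stretches in other genes covered up to 18.9% of a transcript of Cfap161. The other Cfap genes that were lower were Cfap126, Cfap206, Cfap52, Cfap65 and Cfap77, with log2 fold changes between -2.20 for Cfap65 and -1.08 for Cfap77. The other Cfap genes that did not pass were Cfap45 (log2 fold change -0.06), Cfap53 (-0.92), Cfap69 (-0.44), Cfap74 (-0.05), Cfap97 (-0.24) and Cfap410 (0.05). Of these 6 genes, Cfap53 was lower without LC replicate 1 (log2 fold change -1.17, edgeR adjusted p = 0.0216). Among these, near-identical sequence in other genes covered up to 82.3% of a transcript of Cfap97 and up to 55.3% of one of Cfap74.

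The Ift genes, which serve both kinds of cilium, were all tested. Of the 14 genes 7 were lower in IP + LC and none was higher, against 19.6% lower among all tested genes. In the same 7 genes all IP + LC tumors lay below all LC tumors, against 21.5% of all tested genes. Summed over the 14 genes, the level was 622, 673 and 664 CPM in LC and 426, 453 and 509 CPM in IP + LC. The means were 653 ± 27.3 and 463 ± 42.5 CPM (SD, n = 3), a ratio of 1.41. LC replicate 1 was at 0.930 of the mean of the other LC tumors, so that the Ift sum was almost even within LC.

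Within the IFT-B complex, which drives transport towards the tip, 6 of 11 genes were lower, against 19.6% of all tested genes, and 2 of 11 were without a filter, against 8.51%. Ift81, a tubulin-binding subunit, had the largest change. It was at 25.8, 51.7 and 48.3 CPM in LC and at 20.3, 19.3 and 20.3 CPM in IP + LC (log2 fold change -1.12, SE 0.27, edgeR adjusted p = 0.0165). Ift20, a small subunit that also resides at the Golgi, was at 150, 217 and 201 CPM against 103, 111 and 125 CPM (log2 fold change -0.75, SE 0.21, edgeR adjusted p = 0.0297). Ift46 (log2 fold change -0.89, edgeR adjusted p = 0.0236), Ift88 (log2 fold change -0.89, edgeR adjusted p = 0.0499) and Ift172 (log2 fold change -0.80, edgeR adjusted p = 0.0475) were lower by a similar amount. Ift57 had a log2 fold change of -0.58 (edgeR adjusted p = 0.0852). With 1 tumor left out, Ift81 passed in every case and Ift46 in all but the case without IP + LC replicate 2 (edgeR adjusted p = 0.111). Ift20 did not pass without LC replicate 2 or IP + LC replicate 1 or 2 (edgeR adjusted p of 0.119 to 0.138), Ift172 without LC replicate 3 or IP + LC replicate 1 or 2 (0.131 to 0.195), and Ift88 without LC replicate 2 or 3 or IP + LC replicate 1 or 2 (0.107 to 0.197). Ift57 passed when LC replicate 1 was left out and not when any other tumor was (edgeR adjusted p of 0.139 to 0.253). Near-identical sequence in other genes covered up to 33.7% of a transcript of Ift46. The 5 IFT-B genes that did not pass in the full comparison were Ift22 (log2 fold change -0.16), Ift27 (-0.22), Ift52 (0.25), Ift74 (0.07) and Ift80 (-0.16).

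Within the IFT-A complex, which serves the return transport, Ift43 was lower with a log2 fold change of -0.55 (SE 0.21, edgeR adjusted p = 0.0851), a call that was lost without any 1 tumor other than LC replicate 1 (edgeR adjusted p of 0.142 to 0.303). It was at 53.4, 65.8 and 67.8 CPM in LC and at 36.3, 44.4 and 48.7 CPM in IP + LC, without overlap. Ift122 (log2 fold change -0.79, 95% interval -1.71 to 0.12) and Ift140 (log2 fold change -0.17, 95% interval -1.10 to 0.77) did not pass, and Ift122 was lower without LC replicate 1 (log2 fold change -0.95, edgeR adjusted p = 0.0530). The number of Ift genes called depended on the setting. Without a filter only Ift46 and Ift81 were lower, against 8.51% of all genes, and without LC replicate 1 there were 8 lower and 1 higher, Ift52 (log2 fold change 0.46, edgeR adjusted p = 0.0710), against 28.7% lower and 28.3% higher among all tested genes. With the DESeq2 test the 3 called Ift genes were Ift20, Ift46 and Ift81, all lower, which is 3 of 14 against 16.3% of all genes with a DESeq2 adjusted p.

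**Figure D3:**
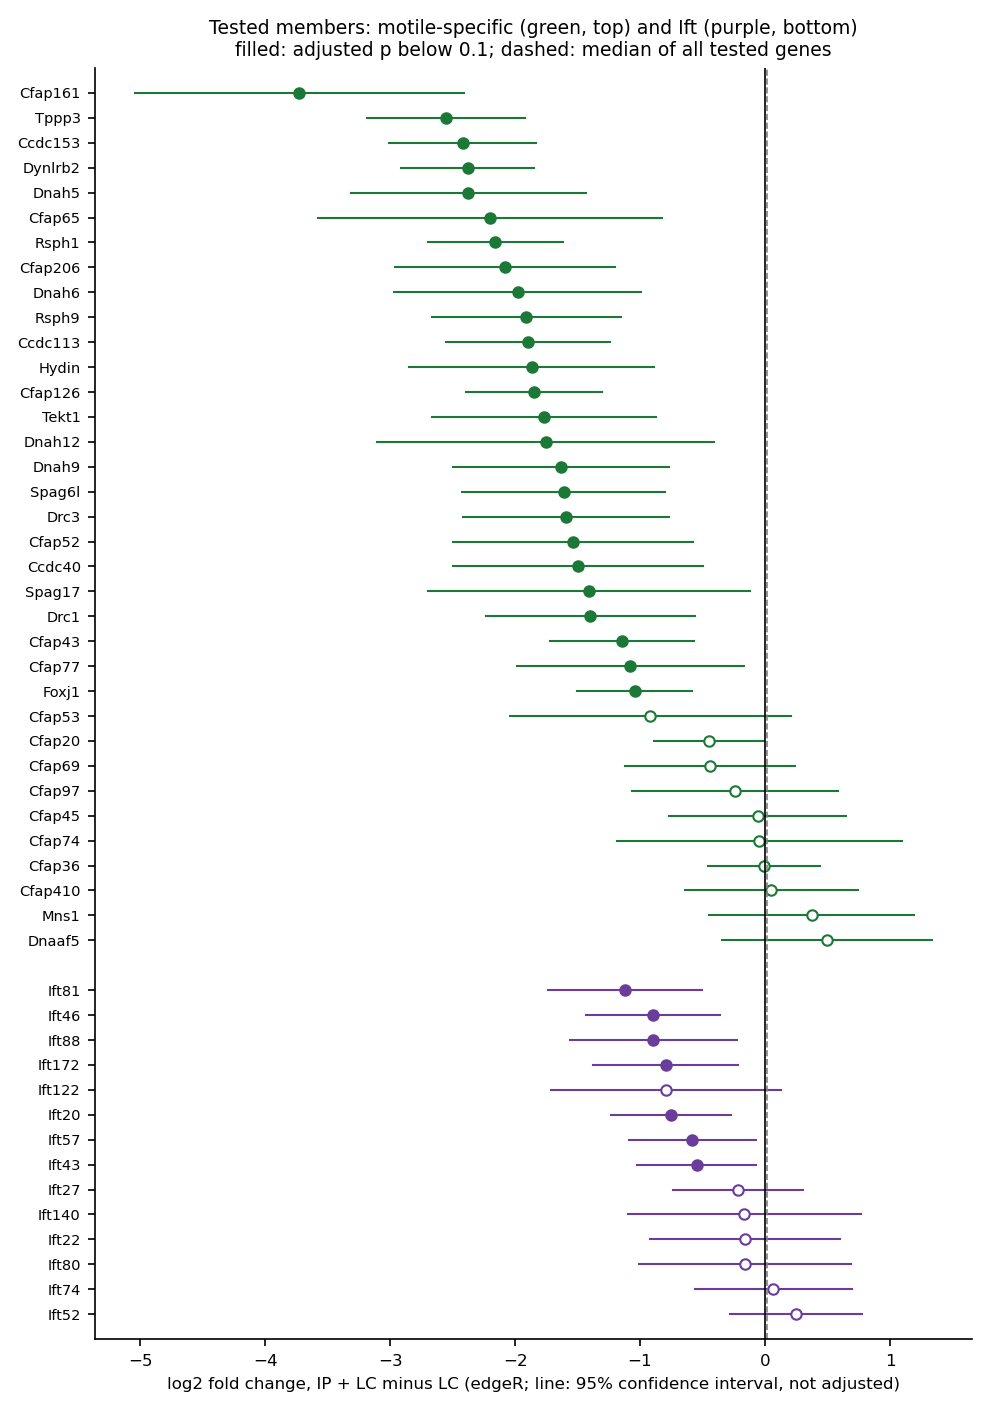
Log2 fold changes (IP + LC minus LC) of the 49 tested members from edgeR, with 95% confidence intervals not adjusted for the number of genes, motile-specific genes in green and Ift genes in purple, and filled points for an adjusted p below 0.1. The motile-specific genes run from -3.73 for Cfap161 to 0.50 for Dnaaf5 with a median of -1.59, and the Ift genes run from -1.12 for Ift81 to 0.25 for Ift52 with a median of -0.56.

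Motile-specific and Ift genes were compared within each tumor, where scaling has no part. The summed UMIs of the motile-specific genes over those of the Ift genes were 2.36, 3.05 and 3.21 in LC and 1.72, 1.36 and 1.41 in IP + LC. All LC tumors were above all IP + LC tumors, with LC replicate 1 nearest to the other group. Tppp3 gave 28.2%, 25.2% and 26.2% of the motile-specific UMIs in LC but 14.2%, 9.00% and 13.3% in IP + LC. Without Tppp3 the ratio to the Ift genes was 1.69, 2.28 and 2.37 in LC and 1.48, 1.24 and 1.22 in IP + LC, which keeps the groups apart by a narrower margin.

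Ratios of members to Foxj1 are given as a description, for pairs chosen after their values had been seen. The ratio of Tppp3 to Foxj1 UMIs was 6.32, 6.58 and 7.85 in LC and 3.04, 1.79 and 2.38 in IP + LC. The ratio of Dynlrb2 to Foxj1 was 1.58, 1.32 and 1.48 against 0.745, 0.491 and 0.491, and that of Ccdc153 to Foxj1 was 1.63, 2.16 and 1.90 against 0.766, 0.660 and 0.782. Each of the 3 ratios separated the groups, whereas Cfap43 and Cfap77 had log2 fold changes of -1.15 and -1.08, near the -1.04 of Foxj1. The share of dynein heavy chains in the motile-specific UMIs did not separate the groups, at 4.23%, 7.61% and 9.69% in LC and 5.74%, 7.20% and 5.57% in IP + LC.

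**Figure D4:**
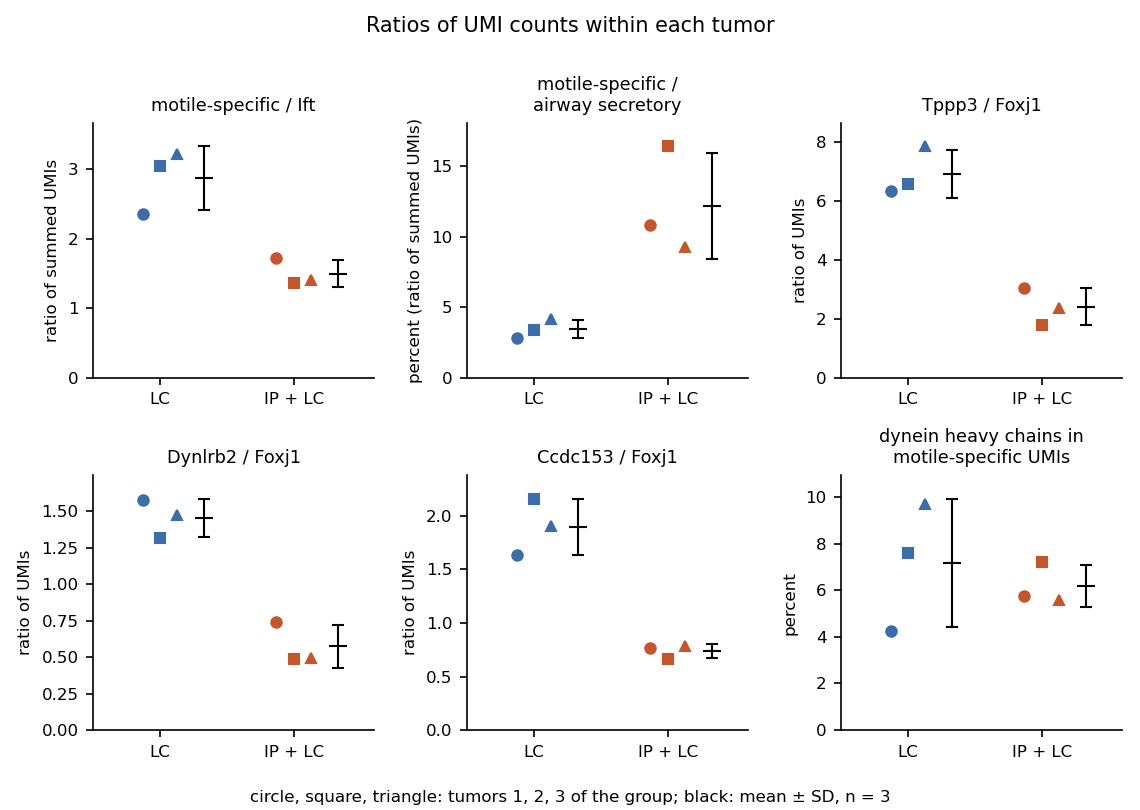
Ratios of UMI counts within each tumor (linear axes from 0), with bars for mean ± SD over 3 tumors. Motile-specific over Ift UMIs were 2.36 to 3.21 in LC and 1.36 to 1.72 in IP + LC, the ratio to airway secretory UMIs goes the other way, and the share of dynein heavy chains overlaps between the groups.

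Genes of the cilium outside the naming rule were described as counts, from lists chosen with earlier results of these data known. Of 56 further genes of multiciliated cells 28 were tested, 25 were lower and none was higher, with a median log2 fold change of -1.92, where 19.6% of all tested genes were lower and 16.8% higher. Without LC replicate 1, 38 were tested, 35 were lower and 1 was higher, Enkd1, against 28.7% lower and 28.3% higher among all tested genes. With no filter 32 of 56 were lower, against 8.51%. Tmem212, a membrane protein of these cells, had a log2 fold change of -2.22 (SE 0.26, edgeR adjusted p = 0.00117), and Mlf1 one of -2.35 (SE 0.38, edgeR adjusted p = 0.00316). Sec14l3, a lipid-binding protein, was at 145, 809 and 1171 CPM in LC and at 215, 150 and 249 CPM in IP + LC. LC replicate 1 was below every IP + LC tumor for this gene, and the log2 fold change was -1.80 (SE 0.60, edgeR adjusted p = 0.0516). It was -2.27 without LC replicate 1 (SE 0.19, edgeR adjusted p = 3.46e-07). The 3 tested genes of the list that did not pass were Gas8 (log2 fold change 0.21), Enkd1 (0.66) and Rfx3 (-0.84), named for their values. Rfx3 was lower without LC replicate 1 (log2 fold change -1.13, edgeR adjusted p = 0.0112). The list summed to 820, 1957 and 2226 CPM in LC and to 496, 417 and 588 CPM in IP + LC, a ratio of 3.33, or 4.18 without LC replicate 1.

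Machinery shared with the primary cilium is read against the same 19.6% of all tested genes that were lower. Of 10 IFT subunits with other names 8 were tested and 3 were lower, with a median log2 fold change of -0.49. They were Hspb11 (log2 fold change -0.63), Traf3ip1 (-0.94) and Ttc30b (-1.79), while Wdr35 (-0.46) did not pass but was lower without LC replicate 1 (log2 fold change -0.60, edgeR adjusted p = 0.0751). The BBSome, a coat that moves membrane proteins into and out of cilia, had 3 of 9 tested genes lower, Bbip1 (log2 fold change -0.52), Lztfl1 (-1.16) and Bbs2 (-1.05), with a median of -0.52, and Arl6 stood at -0.0005. The transition zone, the gate at the ciliary base, had 4 of 12 tested genes lower, Tmem107 (log2 fold change -0.70), B9d1 (-0.60), Tmem216 (-0.74) and Tctn2 (-1.19), with a median of -0.36. Cep290, its most abundant gene by mean CPM, had 2, 61 and 109 UMIs in LC and 75, 101 and 76 in IP + LC, with a log2 fold change of 0.13 (SE 0.58) that did not pass. Without LC replicate 1 it was -0.29 (SE 0.22, edgeR adjusted p = 0.293), so its sign rests on that tumor. None of these lists had a gene called higher, where 16.8% of all tested genes were. Without LC replicate 1 the lower genes were 4 of 8 for the IFT subunits, 4 of 9 for the BBSome and 4 of 12 for the transition zone, against 28.7% of all tested genes. With no filter they were 2 of 10, 1 of 10 and 1 of 16, against 8.51% of all genes.

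The motors of intraflagellar transport had the median log2 fold change nearest to 0 among the cilium lists, at 0.01. Of 8 tested genes 1 was lower, against 19.6% of all tested genes, and 2 of 8 were without LC replicate 1, against 28.7%. The 1 gene was Dync2li1, a light intermediate chain of the retrograde dynein, with 22, 47 and 42 UMIs in LC and 20, 20 and 12 in IP + LC (log2 fold change -1.65, SE 0.26, edgeR adjusted p = 0.00277). Kif3a, a kinesin of the forward motor, had a log2 fold change of 0.53 (SE 0.24, edgeR adjusted p = 0.135), with all IP + LC tumors above all LC tumors. Kifap3 (log2 fold change 0.14) and Tctex1d2 (-0.47) did not pass either. The list summed to 208, 255 and 249 CPM in LC and to 242, 217 and 224 CPM in IP + LC, a ratio of 1.04 with overlapping groups.

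Markers of other lung cells moved with the motile cilium genes. All 13 airway secretory cell genes were lower in IP + LC, against 19.6% of all tested genes, and their sum was 51286 to 60545 CPM in LC and 3753 to 7700 CPM in IP + LC, a ratio of 8.97. Scgb1a1, the main secretory product of club cells, had a log2 fold change of -3.22 (SE 0.38, edgeR adjusted p = 0.00113), Cyp2f2 one of -3.07 and Scgb3a2 one of -3.34. The motile-specific UMIs amounted to 2.84%, 3.39% and 4.16% of the airway secretory UMIs in LC and to 10.8%, 16.4% and 9.31% in IP + LC. Against this neighbouring cell type of the airway, the motile cilium genes were thus relatively higher in every IP + LC tumor.

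Most alveolar and vascular markers were lower as well, where 19.6% of all tested genes were. Of 10 type 2 alveolar genes 9 were lower, with a sum of 36697 to 46036 CPM in LC and 6711 to 12094 CPM in IP + LC, and Sftpc, a surfactant protein, had a log2 fold change of -2.11, with Sftpa1 at -2.54 and Sftpb at -1.94. Of 8 type 1 alveolar genes 7 were lower, with a sum of 3211 to 5690 CPM against 1075 to 1499 CPM, and Ager had a log2 fold change of -1.84, with Cav1 at -1.76 and Hopx at -2.28. The 10 endothelial genes were all lower, with a sum of 1651 to 2912 CPM against 495 to 664 CPM. Ramp2 had a log2 fold change of -2.73, Cldn5 one of -2.26 and Pecam1 one of -1.66. Abca3 (log2 fold change -1.47) and Pdpn (-0.16), named for their values, were the alveolar genes that did not pass. Both were lower without LC replicate 1 (log2 fold changes -1.83 and -0.46, edgeR adjusted p = 0.00142 and 0.0737), and in the fit without a filter the 10 type 2 genes were all lower, against 8.51% of all genes.

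Proliferation genes went the other way. Of 12 genes 9 were higher in IP + LC and none was lower, against 16.8% of all tested genes higher, with sums of 1489 to 1782 CPM in IP + LC, 184 and 176 CPM in LC replicates 2 and 3, and 990 CPM in LC replicate 1. Top2a, a topoisomerase of dividing cells, had a log2 fold change of 2.96 (SE 0.40, edgeR adjusted p = 0.00160). Ube2c, an enzyme that passes ubiquitin to targets in mitosis, was at 214, 21.9 and 12.7 CPM in LC and at 300.2, 265 and 235 CPM in IP + LC, and its log2 fold change of 1.80 did not pass (SE 0.83, edgeR adjusted p = 0.138). Cdk1, a kinase of the cell cycle, was at 169, 21.9 and 17.8 CPM against 170, 155 and 130 CPM with overlap, and its log2 fold change of 1.25 did not pass either (SE 0.71, edgeR adjusted p = 0.221). Without LC replicate 1 all 12 genes were higher, against 28.3% of all tested genes, with log2 fold changes of 3.94 for Ube2c and 2.93 for Cdk1. All 12 were also higher in the fit without a filter, against 7.87% of all genes. In the sums, LC replicate 1 was thus between the groups for proliferation genes and the lowest LC tumor for motile-specific genes, while single genes differed from this order. Every gene of these marker lists had a UMI in at least 1 tumor, and the part of airway, alveolar and dividing cell content in the decrease of the motile cilium genes was not tested.

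**Figure D5:**
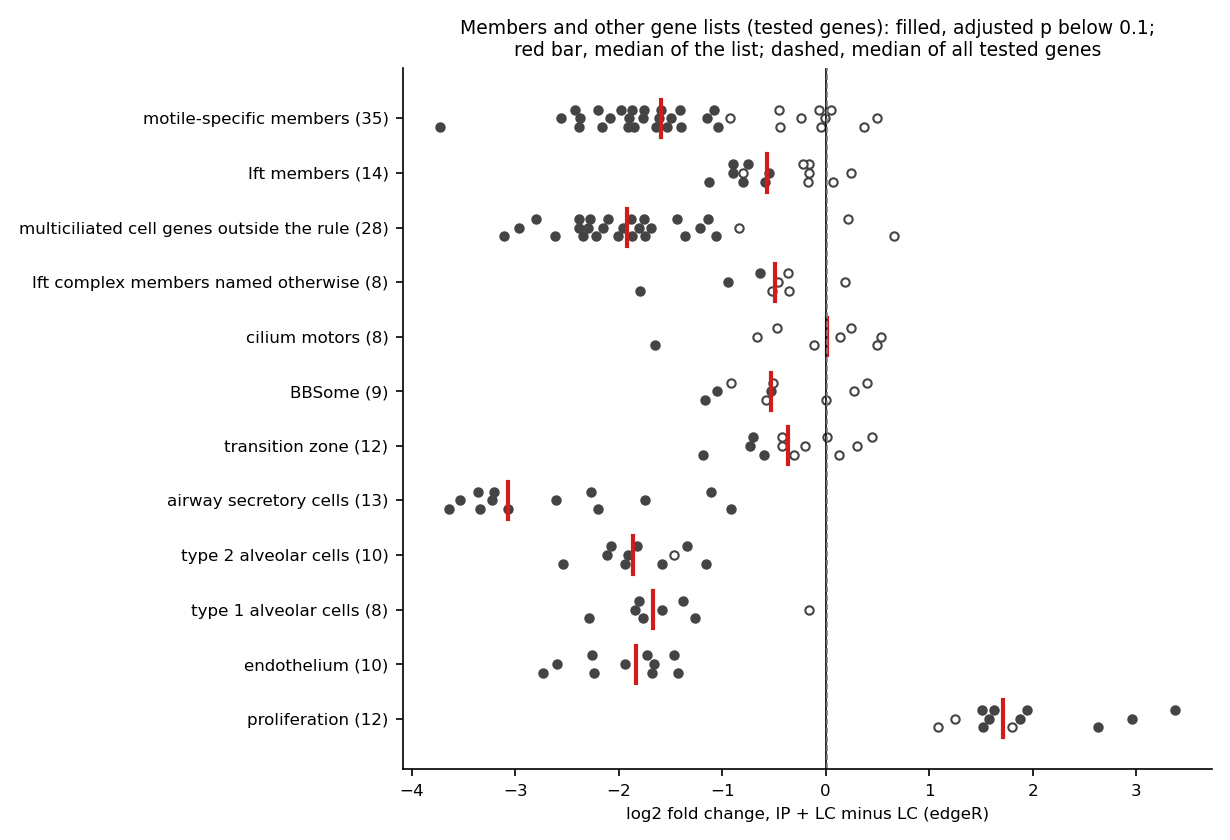
Log2 fold changes (IP + LC minus LC, edgeR) of the tested members and of the tested genes in 10 other lists, with filled points for an adjusted p below 0.1, a red bar at the median of each list and a dashed line at the median of all tested genes. The motile-specific median of -1.59 lies between the Ift median of -0.56 and the airway secretory median of -3.07, and proliferation is the list whose tested genes all lie to the right of 0.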

How the data were processed

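The authors prepared bulk RNA barcoding and sequencing libraries, primed at the poly(A) tail, and deposited 1 table of UMI counts per tumor, not normalized, with 31130 genes. Per the labels and the submitters' processing notes, they used UMI-tools 1.1.1, Trim Galore 0.6.7, HISAT2 2.2.1 and featureCounts 2.0.1 on GRCm38, and the notes also name DESeq2. The annotation release and the strand setting are not given in the sources used here. Reads of overlapping or near-identical genes can therefore be split or merged. Besides the genes for which a share is given above, near-identical stretches covered up to 43.0% of a transcript of Dnah8 and 38.0% of Tekt2. The share was up to 27.7% for Dnah9, 20.7% for Dnaaf1 and 16.4% for Spag17, and further members had such stretches.

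From these counts, genes were kept by filterByExpr (minimum count of 10, minimum total of 15), libraries were scaled by TMM, and the quasi-likelihood test of edgeR 4.0.16 (R 4.3.3) compared IP + LC with LC at a Benjamini-Hochberg adjusted p-value below 0.1, the limit the study used. The fit and adjustment covered all 11240 kept genes, and the procedure was tested on simulated data. Alternatives were other scalings and filters, DESeq2 1.42.0, limma 3.58.1 (voom), a replicate block, thinning to 592733 UMIs per library and leaving out each tumor. A filter on a mean of at least 10 UMIs over the 6 libraries was added after seeing the data. Overlaps came from GENCODE M21 on GRCm38, near-identical stretches from blastn 2.17.0+ (at least 81 bases and 95% identity between transcripts, given as the highest share over a gene's transcripts) and promoters from RefSeq on GRCm38.p6. Counting intervals and the 3-UMI floor cover counting error only.

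The members and lists were chosen with earlier results of these data known. Named genes were the 12 listed by name, in each role up to 3 with the highest mean CPM, every Ift gene called, any member called higher and the 3 genes of each other list with the highest mean CPM. Others were named after their values had been seen.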

Additional observations from a re-analysis of the deposited data

How the results depend on the processing

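The count of 25 lower motile-specific genes stayed within 1.5 times under the other scalings, DESeq2, voom, the stricter p limit and the mean filter. It was 38 of 75 without a filter, 9 of 11 with at least 10 UMIs in every library and 11 of 17 after thinning, where the number of genes tested changed. Over all genes, 2505 of 29423, 1586 of 7558 and 1359 of 8860 were lower in these 3 settings. Leaving out 1 tumor gave 18 to 38 lower motile-specific genes, the highest without LC replicate 1, and 0 were higher in every alternative. Over all genes, leaving out 1 tumor gave from 1368 lower and 897 higher of 11787, without IP + LC replicate 2. The highest counts were 3367 lower and 3324 higher of 11748, without LC replicate 1. The count of 7 Ift genes past the limit in either direction was 2 without a filter, 3 with DESeq2, 4 with the replicate block and 4 after thinning. It was 1 to 9 with 1 tumor left out, the 9 being 8 lower and 1 higher without LC replicate 1. Calls over all genes changed too, from 2203 lower and 1885 higher of 11240 in the main fit. They were 2505 and 2315 of 29423 without a filter, 1835 and 1426 with DESeq2, and 1811 and 1599 with the block. After thinning they were 1359 and 1054 of 8860. The Ift count fell to 3 on leaving out LC replicate 2 or 3, to 2 on leaving out IP + LC replicate 1 and to 1 on leaving out IP + LC replicate 2. Over all genes there were 1569 lower and 1016 higher of 11530 without LC replicate 2, and 1749 and 1290 of 11517 without LC replicate 3. There were 1572 and 1088 of 11768 without IP + LC replicate 1, and 1368 and 897 of 11787 without IP + LC replicate 2. The cause of the fall was not tested. The motile-specific median log2 fold change of -1.59 was -1.86 with at least 10 UMIs in every library, and -1.75 to -1.38 with 1 tumor left out. The Ift median of -0.56 was -0.40 with library size alone and -0.45 without a filter, and -0.63 to -0.46 with 1 tumor left out. The log2 ratio of the summed CPM was -1.45 for motile-specific genes and -1.21 when every gene weighed the same, and for Ift genes it was -0.50 and -0.33 with library size alone, with ranges of -1.60 to -1.35 and -0.57 to -0.44 with 1 tumor left out. Library size alone moved the median of all genes from 0.02 to 0.18 and gave 1800 lower and 2520 higher genes in place of 2203 and 1885. The log2 fold change of Cfap36 turned positive with library size alone (0.15), without a filter (0.11), with at least 10 UMIs in every library (0.0016), after thinning (0.18) and on leaving out 4 of the 6 tumors in turn (overall range on leaving out 1 tumor -0.10 to 0.074).

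Replicate numbers showed no sign of pairing the tumors. Same-numbered tumors correlated in their deviations at 0.03, -0.12 and 0.11, and tumors with unlike numbers at -0.14 to 0.13. With 3 tumors per group these values cannot exclude a pairing. With the replicate block 23 motile-specific and 4 Ift genes were lower, with medians of -1.53 and -0.54, where 1811 of all 11240 tested genes were lower.

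Depth limits the members most in LC replicate 1, where 3 UMIs are 5.17 CPM, and 41 motile-specific genes were too low to test.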
